A study of Cicer arietinum with 24 samples.

Results

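A set of 63 chickpea genes with their highest transcript level in whole seeds at S3, the late-embryogenesis stage of seed development, is described here. A gene was taken into the set when its value at S3 was at least 10 FPKM and at least 2 times that in each of the other 7 libraries. FPKM is a fragment count corrected for transcript length and for library size. Of 23943 genes that are listed once and under a single identifier, 63 (0.263%) met this rule. The minimum of 10 FPKM applies at S3 only and shapes the set, since 436 genes met the 2-fold limit with no minimum.

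The plants were of the small-seeded cultivar Himchana 1 and grew in the field, and the labels name no treatment. RNA was sequenced from leaves, taken when seeds were at mid maturation, and from the entire seed at each of 7 stages, S1 to S7, with 3 biological replicates for each of the 8 groups (24 samples). S1, S2 and S3 are early-, mid- and late-embryogenesis, S5 is mid-maturation and S7 late-maturation, while S4 and S6 lie between the stages around them. Per the study's methods each seed replicate pooled many seeds, and a whole seed holds the embryo, the seed coat and, until it is used up, the endosperm.

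In legumes the embryo first forms by cell division and patterning, then the cotyledons stop dividing, expand and fill with storage protein and starch, and finally the seed dries. Late embryogenesis is the end of the dividing phase, just before filling sets in. During this time the endosperm is largely used up by the growing embryo, and the seed coat passes sugars and amino acids from the mother plant to it. RNA of the entire seed is a mixture of the tissues present at each stage.

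The deposited values hold the 3 replicates of a group merged into 1 value per gene, so no value below has a standard deviation and no difference has a replicate test. All differences describe these 8 libraries only. Summed over all 35234 loci, FPKM was lowest at S2 (723136), highest at S7 (2515731) and 1039405 at S3. The 75th percentile over the same loci, those listed at 0 included, lay between 10.7 and 11.7 FPKM in every library. Over genes above 0 only, the upper quartile differed more, and matching it to S3 took factors from 0.589 (S7) to 1.07 (S2). The number of reads behind a value is unknown. The ratios of values under 0.08 FPKM between S3 and the other libraries did not pile up on a common step, with at most 3.21% of them in a window of 2%. Low values are therefore of unknown precision, and a value of exactly 0 may be a failed estimate and is only said to be listed at 0. Gene names are not paired with the identifiers in the files, and none of them matched an entry among the 29938 chickpea genes that RefSeq annotates on Cicar.CDCFrontier_v2.0 (0 of 23943), so genes are given by identifier, without coordinates or sequences.

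The values that chose the genes are a description and carry no test. At S3, 7170 genes reached 10 FPKM, 677 of them had their highest value there, and 63 exceeded every other library 2-fold. Set against S2 alone, 931 genes (3.89%) had 10 FPKM at S3 and a 2-fold higher value, and against S4 alone 292 genes (1.22%). Just inside the 2-fold limit were Ca_06273, with 29.1 FPKM at S3 and 14.2 at S4 (2.05-fold), and Ca_01374, with 19.1 FPKM at S3 and 9.33 at S2 (2.05-fold). Just outside were Ca_21097, with 38.9 FPKM at S3 and 19.6 at S4 (1.98-fold), and Ca_12138, with 41.1 FPKM at S3 and 20.8 at S6 (1.97-fold). The lowest members at S3 were Ca_03395 (10.3 FPKM) and Ca_14918 (10.4 FPKM), and the next genes below the minimum were Ca_21802 (9.10 FPKM) and Ca_15787 (9.02 FPKM). A further 63 genes lay between 1.5 and 2 times the next library and 27 genes peaked 2-fold at S3 with 5 to 10 FPKM, so neither limit falls in a gap of the values.

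The set spans more than 3 orders of magnitude at S3, with a median of 36.4 FPKM, quartiles of 16.7 and 109 FPKM and a range from 10.3 to 23568 FPKM. There were 22 genes between 10 and 20 FPKM, 14 between 20 and 50 FPKM, 10 between 50 and 100 FPKM, 13 between 100 and 1000 FPKM and 4 above 1000 FPKM. The 63 genes together held 5.00% of the summed FPKM of the 23943 genes at S3, against 0.978% at S2, 0.432% at S4, 0.125% at S5 and 0.0128% at S7. These shares also move with the library sums, since the summed FPKM of the 63 genes was 5244 at S2, 38620.5 at S3, 2454 at S4, 2081 at S5 and 229 at S7. Most of this came from a single gene, since Ca_06747 alone held 3.05% at S3. As the samples are bulk RNA, fewer cells of a type and less RNA per cell cannot be told apart in any of these values.

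Ca_06747 was the most abundant gene of the set. It had 119 FPKM in leaf and 747, 2938, 23568, 16.2, 1375, 188 and 93.9 FPKM from S1 to S7. The level thus climbed over the first stages to 8.02 times that of S2, the next highest library, and the S4 value was the lowest of all 8, lower than in leaf. The second most abundant, Ca_23535, had 6.39 FPKM in leaf and 30.2, 385, 5841 and 56.4 FPKM from S1 to S4, and was listed at 0 at S5, S6 and S7. Its S3 value was 15.2 times that at S2. The gene stands in a list of genes within quantitative trait loci (QTLs). Ca_15857 had a broader profile, with 9.32 FPKM in leaf, 515, 637, 3986, 1725, 245 and 0.975 FPKM from S1 to S6 and a listed 0 at S7. Its S3 value was 2.31 times that at S4. Ca_18340, in the list for differentiation, had 3.80 FPKM in leaf and 0.444, 290.4, 1093, 146, 119, 0 and 0.485 FPKM from S1 to S7. This gene was below 1 FPKM at S1 and above 100 FPKM at the 4 stages that followed.

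**Figure D1:**
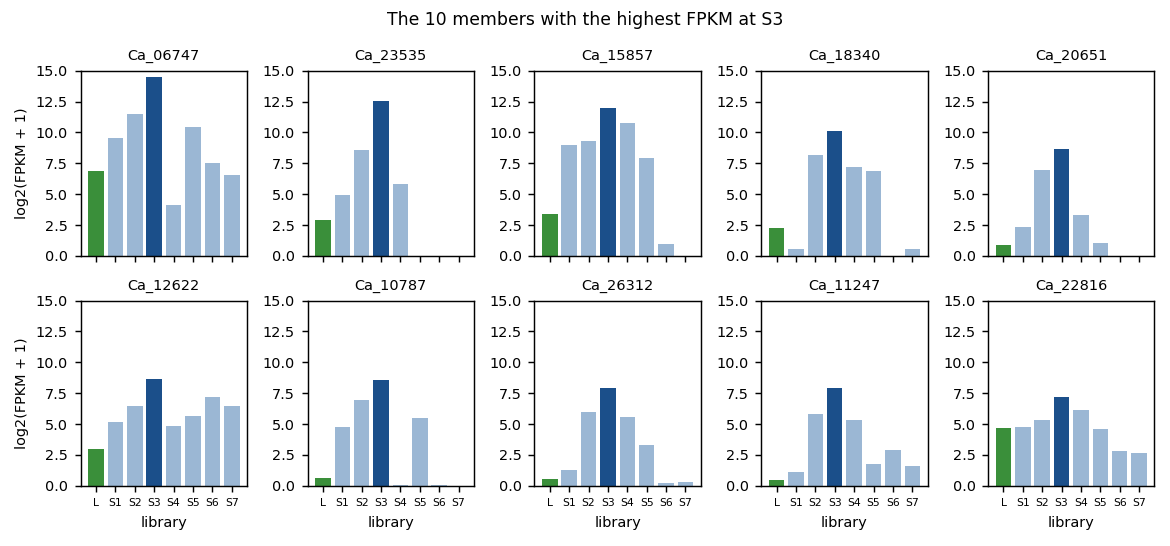
Level of the 10 genes with the highest FPKM at S3 in each library, as log2(FPKM + 1) of the merged value of 3 replicates (vertical axis), with leaf in green, S3 in dark blue and the other seed stages in light blue. The values at S3 run from 149 FPKM (Ca_22816) to 23568 FPKM (Ca_06747), and Ca_06747, Ca_10787 and Ca_12622 were lower at S4 than at S5.

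The next 6 genes by level lay between 149 and 396 FPKM at S3. Ca_20651 had 0.818 FPKM in leaf and 4.15, 119.7, 396, 9.19 and 1.09 FPKM from S1 to S5, and was listed at 0 at S6 and S7. The value at S4 was thus well below that at S2. Ca_26312 (60.4 FPKM at S2, 241 at S3, 47.9 at S4 and 8.68 at S5) and Ca_11247 (55.8, 237, 40.3 and 2.34 FPKM at the same stages) had nearly the same profile from S2 to S4 and were both below 1 FPKM in leaf. At S5 the value of Ca_26312 was the higher one, and at S6 the order was turned, with 6.42 FPKM for Ca_11247 and 0.168 FPKM for Ca_26312. Ca_22816 had one of the lowest ratios of the 10 (2.19), with 25.2 FPKM in leaf and 25.6, 39.7, 149, 68.1, 23.7, 6.22 and 5.48 FPKM from S1 to S7. The remaining ones, Ca_12622 and Ca_10787, are described with the genes that rose again after S4.

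The ratio of S3 to the next highest library had a median of 3.24 over the 63 genes, with quartiles of 2.53 and 4.83 and a range from 2.05 to 21.4. At least 4 times every other library was reached by 21 genes, and at least 10 times by 6. Those 6 were Ca_21349, Ca_22306, Ca_23535, Ca_21854, Ca_09016 and Ca_26768. Except for Ca_23535 and Ca_09016 they were below the median level of the set at S3 (36.4 FPKM). Ca_21349 had 0.547 FPKM at S2, 11.7 at S3 and 0.508 at S4 and was listed at 0 in the other 5 libraries, which gave the largest ratio (21.4). Ca_22306 had 0.860 FPKM at S2, 17.7 at S3 and 0.801 at S4 and was also listed at 0 elsewhere, with a ratio of 20.6. These were the 2 genes of the set that reached 1 FPKM at S3 and in no other library. Their ratios rest on neighbours below 1 FPKM, whose precision is unknown. Ca_21854 had 1.86 FPKM at S2, 25.9 at S3 and 0.586 at S4, was listed at 0 in leaf and at S1 and S5, and had 1.44 FPKM at S6, a ratio of 13.9. Ca_15508, the seventh by ratio (9.43), had 16.6 FPKM at S3 and 1.76 FPKM at S2 and stayed below 1 FPKM in every other library.

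Among the sharp peaks at a higher level, Ca_09016 had 0.150 FPKM in leaf and 0.00925, 6.57, 77.1 and 4.11 FPKM from S1 to S4 and was listed at 0 from S5 on, a ratio of 11.7. The same identifier also stands in a locus joined with Ca_09015, which did not peak at S3 (its value was 53.7 at S3 but 66.1 FPKM at S5). How reads were shared out between both loci was not tested. A joined locus of this kind exists for 3 of the 63 genes. That of Ca_02550 peaked at S3 as well (32.9 FPKM against 13.9 at S2), and that of Ca_19869 had 16.1 FPKM at S3 and 14.3 at S4. Ca_09262 had 4.85, 13.3, 122, 4.59 and 0.0388 FPKM from S1 to S5, which is 9.12 times the next library. Ca_04460, in the QTL list, had 1.73, 12.9, 99.0, 3.30 and 0.413 FPKM from S1 to S5, a ratio of 7.66. Both were listed at 0 at S6 and S7 and were near 0 in leaf (0.114 FPKM and a listed 0).

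**Figure D2:**
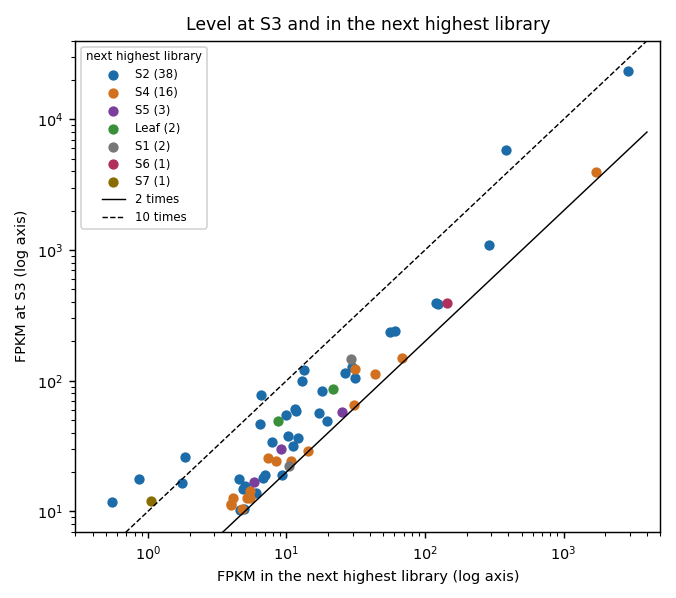
FPKM at S3 (vertical axis) against FPKM in the next highest library (horizontal axis) for the 63 genes, both on log axes, with a colour for the library that was next highest. The solid line marks 2 times and the dashed line 10 times, and 6 genes lie above the dashed line, 4 of them below 30 FPKM at S3.

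The side on which a peak was broad was read from the next highest library. It was S2 for 38 genes, S4 for 16, S5 for 3, leaf for 2, S1 for 2 and S6 and S7 for 1 each. The stage before and the stage after thus followed S3 in 54 of the 63 genes. The S2 group had a median ratio of 3.95 (2.05 to 21.4) and a median level of 47.9 FPKM at S3. In it, S4 was at a median of 4.43% of the S3 value and S2 at 25.3%, an order that the grouping itself fixes. The S4 group had a median ratio of 2.501 (2.05 to 3.97) and a median level of 24.2 FPKM, with S4 at 40.0% and S2 at 23.8% of the S3 value, the reverse order, fixed in the same way.

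**Figure D3:**
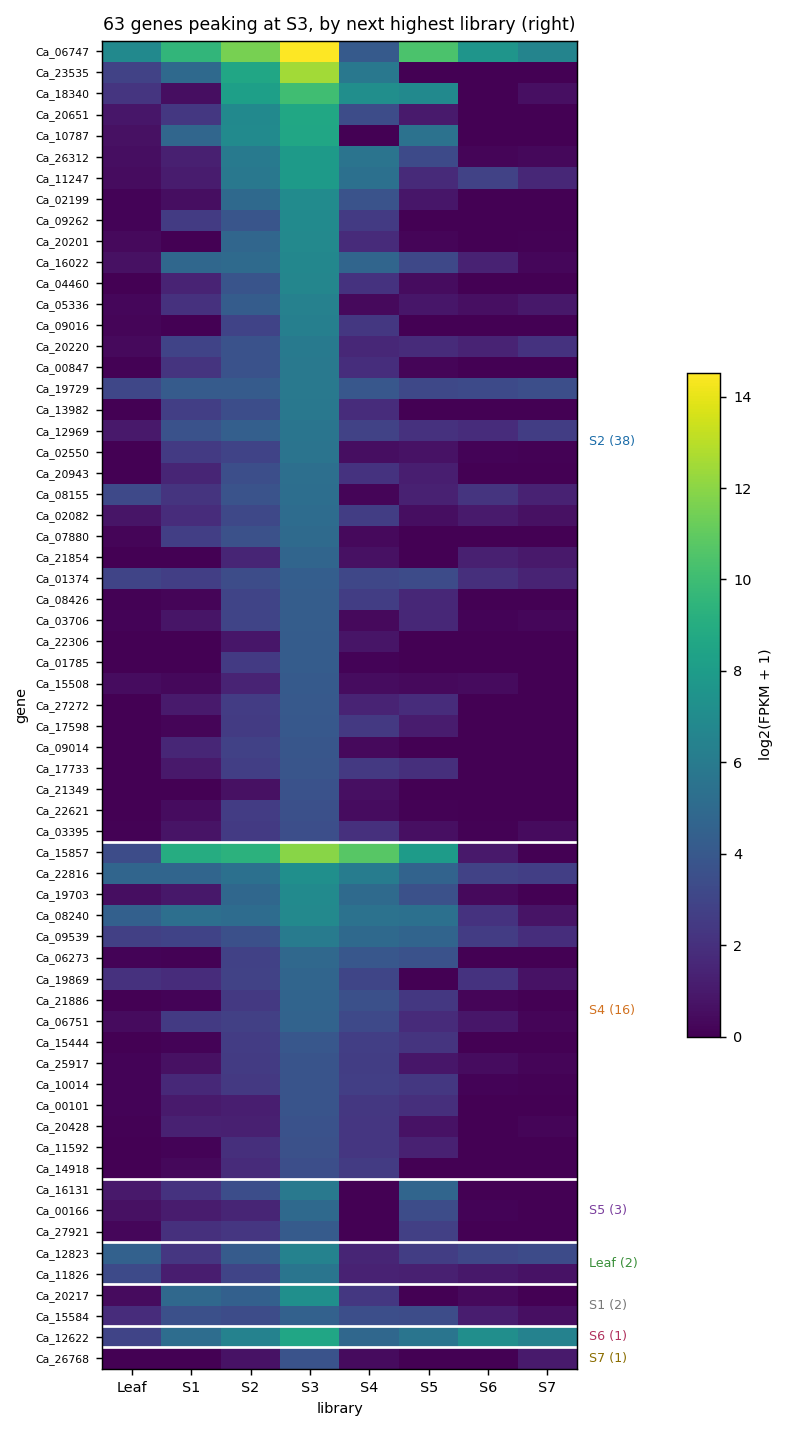
Level of the 63 genes (rows) in the 8 libraries (columns) as log2(FPKM + 1), grouped by the next highest library, which is written on the right with its number of genes, and ordered by the S3 value within a group. Columns S6, S7 and leaf are dark for most rows, and 41 of the 63 genes (65.1%) were below 1 FPKM in these 3 libraries. Among the 7170 genes with 10 FPKM or more at S3, 268 (3.74%) were, and the rule caps these libraries in the 63 genes.

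On the rising side, 59 of the 63 genes had a higher value at S2 than at S1 and a higher one again at S3, of which the step from S2 to S3 is fixed by the rule. Among the 7170 genes with 10 FPKM or more at S3 this order held for 1846 (25.7%). In those genes neither step is fixed, so both shares are not alike. The S2 value was at least 2 times that at S1 in 44 of the 63 genes and in 566 of the 7170 (7.89%). The rule caps S1 and S2 relative to S3, so the counts in the set are a description. S2 values were between 4.67% and 48.7% of those at S3, with a median of 23.4%, and 3 genes were below 1 FPKM at S2. The exceptions, with a higher level at S1 than at S2, were Ca_20217, Ca_08240, Ca_15584 and Ca_20428. In Ca_20217, S1 was the next highest library, with 29.5 FPKM at S1, 20.7 at S2, 148 at S3 and 4.07 at S4. For Ca_15584 the values at S1 (10.5 FPKM), S2 (9.55), S4 (10.4) and S5 (9.53) were all alike, and S3 stood at 22.2 FPKM above this level.

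On the falling side the spread was wider. S4 was between a listed 0 and 48.7% of the S3 value, with a median of 8.99%, and it was below 10% of it in 33 genes and below 1% in 11 genes. S2 was below 10% of S3 in 7 genes, and in all 7 of them S4 was below 10% as well. Among the 7170 genes with 10 FPKM or more at S3, S4 was below 10% of S3 in 79 (1.10%) and S2 in 80 (1.12%). The rule caps both values in the set, so its counts are a description. In every library, 8 of the 63 genes (12.7%) and 6063 of the 7170 (84.6%) had 1 FPKM or more. The 8 genes were Ca_06747, Ca_12622, Ca_22816, Ca_12823, Ca_09539, Ca_19729, Ca_12969 and Ca_01374. A total of 34 genes fell or stayed level at each step from S3 to S7, of which the step to S4 is fixed by the rule. A listed 0 that follows a listed 0 counts as level here, and the share among the 7170 genes was not computed.

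**Figure D4:**
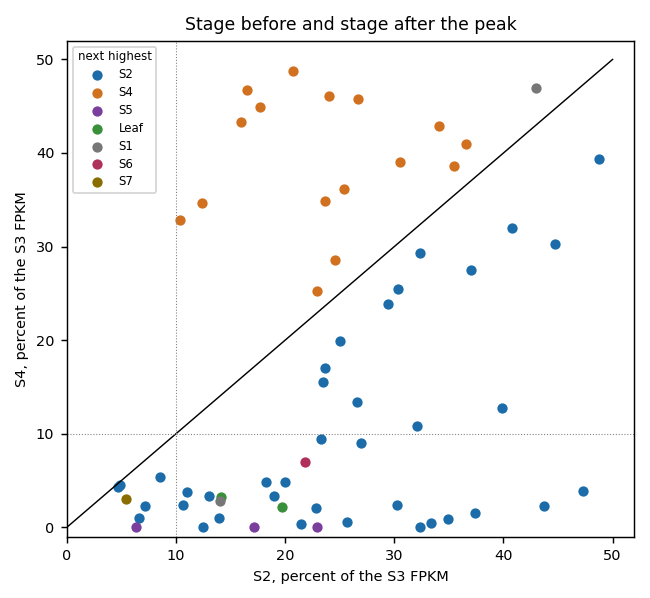
S4 value (vertical axis) against S2 value (horizontal axis), both as a percent of the S3 FPKM, for the 63 genes, with a colour for the next highest library, dotted lines at 10% and a diagonal where both stages are equal. S2 was above S4 in 46 genes (73.0%), and 33 genes lie below 10% at S4 against 7 at S2. Among the 7170 genes with 10 FPKM or more at S3, S2 was above S4 in 3337 (46.5%). The rule caps both stages in the 63 genes.

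Among the genes with S4 as next highest library, the profiles were lower and broader. Ca_09539 had 5.80 FPKM in leaf and 6.64, 10.8, 65.5, 30.6, 25.1, 4.98 and 2.74 FPKM from S1 to S7, a slow decline. Ca_08240 had 20.5 FPKM in leaf and 39.3, 34.0, 112, 43.6, 40.2, 3.42 and 0.700 FPKM from S1 to S7. In this gene S3 stood out by 2.56-fold from an otherwise even level between S1 and S5. Ca_19703 was near 0 at S1 (0.918 FPKM) and had 28.2 FPKM at S2, 123 at S3, 31.0 at S4 and 11.1 at S5, so that S2 and S4 were at like levels. None of the 16 genes reached 4 times the next library.

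The S5 value was above that at S4 in 14 genes, by as little as 1.19-fold (Ca_01374), and in 4 of them S5 reached 10 FPKM. The 14 genes were a smaller share (22.2%) than among the 7170 genes with 10 FPKM or more at S3, of which 3593 (50.1%) had S5 above S4. A value at S5 of at least 10 FPKM and 2 times that at S4 was found for 3 of the 63 genes (4.76%) and 683 of the 7170 (9.53%). With a minimum of 1 FPKM at S5 instead, these were 8 of the 63 (12.7%) and 703 of the 7170 (9.80%). The rule caps both S4 and S5 relative to S3, so the shares in the set depend on the choice and are a description. Ca_06747 went from 16.2 FPKM at S4 to 1375 at S5. Ca_10787 had 0.566 FPKM in leaf and 26.7, 125, 386, 0.0394, 43.9, 0.0344 and 0.0146 FPKM from S1 to S7, so that S4 was near 0 between S3 and an S5 value above that at S1. Ca_16131 had 0.971 FPKM in leaf, 3.30, 9.89 and 57.5 FPKM from S1 to S3, a listed 0 at S4 and 25.3 FPKM at S5, and was listed at 0 again at S6 and S7. The 2 other genes listed at 0 at S4, Ca_00166 (29.8 FPKM at S3 and 9.19 at S5) and Ca_27921 (16.8 FPKM at S3 and 5.81 at S5), had the same order of stages. These 3 genes are the ones for which S5 was the next highest library. Whether S4 was truly empty for them or the estimate failed cannot be told from a listed 0. Leaving aside the 4 genes that reached 10 FPKM, the other 10 of the 14 were below it at S5, and 2 of these were below 1 FPKM. After the libraries were rescaled to the same sum, S5 was above S4 in 8 genes of the set found then, in place of 14.

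Few genes of the set had 10 FPKM or more at S6, at S7 or in leaf. Ca_12622 had 6.82 FPKM in leaf and 35.9, 85.9, 393, 27.5, 49.2, 144 and 85.5 FPKM from S1 to S7. This profile has 2 maxima, of which the second, at S6, was the next highest library as deposited. The S6 value relative to S3 depends on the scaling, since the log2 factor for S6 was -0.46 with the median ratio between libraries and -1.15 with the same sum in each. With the same-sum factors (0.449 for S6 and 1.44 for S2), S2 stands above S6 in this gene. The upper-quartile factors (0.628 and 1.07), taken over genes above 0 only, also put S2 above S6, by little. The median-ratio factors do not. Only Ca_06747 and Ca_12622 had 10 FPKM or more at S6, and these and Ca_19729 (10.2 FPKM) at S7. For Ca_26768, with 11.97 FPKM at S3, the next highest library was S7 with 1.05 FPKM.

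In leaf, 47 of the 63 genes were below 1 FPKM, 11 of these were listed at 0, and 4 had 10 FPKM or more. Ca_06747 (119 FPKM), Ca_22816 (25.2 FPKM) and Ca_12823 (21.7 FPKM) had the highest leaf values. Ca_12823, in the QTL list, had its next highest value in leaf, with 3.86, 17.1, 86.7, 1.88, 5.30, 7.65 and 8.81 FPKM from S1 to S7. The other gene with leaf as next highest library, Ca_11826, in the differentiation list, had 8.62 FPKM in leaf and 1.22, 6.93, 49.0, 1.59 and 1.45 FPKM from S1 to S5. At the last stages, 45 genes were below 1 FPKM at both S6 and S7, and 24 were listed at 0 at both. Of these 24, 9 were listed at 0 at S5 too. Among the 7170 genes with 10 FPKM or more at S3, 5.63% were below 1 FPKM in leaf and 10.1% at both S6 and S7. Of these 7170, 72.4% had 10 FPKM or more in leaf and 0.502% were listed at 0 there. At both S6 and S7, 1.31% were listed at 0, and 0.265% at S5 too. Over all 23943 genes, 48.4% were below 1 FPKM in leaf, 54.4% at S6 and 55.6% at S7. Leaf values below 1 FPKM were found for 21 of the 22 members under 20 FPKM at S3. Of the 17 members at 100 FPKM or more, 10 were below 1 FPKM in leaf. The rule caps leaf, S6 and S7 relative to S3, so the shares in the set depend on the choice and are given as a description.

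The study grouped genes by gene ontology terms or QTL position into lists for cell cycle, differentiation, cell growth, grain filling, desiccation and seed weight QTLs. These lists hold genes that the study tied to changes in methylation or expression, also between stages and cultivars that include Himchana 1 at S3, and are no independent evidence. Of the 63 genes, 10 stood in a list and 53 in none. The cell cycle list gave 1 of its 337 genes among those used here, grain filling 1 of 167, differentiation 3 of 718, QTLs 5 of 891, cell growth 0 of 176 and desiccation 0 of 148. In all, 10 of 2130 listed genes (0.469%) peaked at S3, beside 0.263% of all genes used. The minimum of 10 FPKM at S3 was reached by 818 of the 2130 listed genes and by 7170 of all 23943. The listed genes were higher at S3, with a median of 5.83 FPKM against 1.85 FPKM, so both shares start from unlike levels. The cell cycle gene Ca_25917 had 0.573, 4.67, 12.8, 5.23 and 0.842 FPKM from S1 to S5. The cell cycle list as a whole had another course, with medians of 7.46, 5.75, 5.17, 5.37 and 2.78 FPKM from S1 to S5 and 1.39 FPKM at S7. The grain filling gene Ca_02082 had 2.63, 7.91, 33.7, 5.25 and 0.436 FPKM from S1 to S5, whereas the median of that list was 7.94 FPKM at S3 and 8.73 at S5.

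Of the genes in the QTL list, Ca_16022 and Ca_01374 had broad profiles. Ca_16022 had 0.550 FPKM in leaf and 28.2, 31.1, 106, 25.2, 7.71 and 1.63 FPKM from S1 to S6. Ca_01374 had between 5.55 and 9.33 FPKM in leaf and at S1, S2, S4 and S5, and 19.1 FPKM at S3. The third gene under differentiation, Ca_11592, was among the lowest of the set, with 2.81 FPKM at S2, 11.1 at S3 and 4.01 at S4.

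The same rule was applied with each other library in the place of S3. It was met by 1418 genes (5.92%) in leaf, 190 (0.794%) at S1, 31 (0.129%) at S2, 29 (0.121%) at S4, 330 (1.38%) at S5, 92 (0.384%) at S6 and 165 (0.689%) at S7. In the values as deposited, more genes thus met the rule at S3 than at the stage before and the stage after it. Fewer genes met it at S3 than at S1 and at the stages from S5 on. Rescaling to the same sum multiplies S2 by 1.44 and S4 by 1.36 relative to S3. The counts at the other libraries were not recomputed with it, so whether this order holds under another scaling was not tested. Genes peaking at S2 had a median ratio to the next library of 2.49, with S1 next highest in 13 of 31 and S3 and S4 in 8 each. Genes peaking at S4 had a median ratio of 2.88, with leaf next highest in 10 and S3 in 9 of 29. For genes peaking at S3 the ratio was 3.24, and it was higher for genes peaking at S5 (3.32) and in leaf (4.51). Of the genes peaking at S3, 47 of 63 were below 1 FPKM in leaf, compared with 19 of 31 for S2 and 10 of 29 for S4. These numbers were not tested, because each library is a single value and the sets are chosen by the same values.

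**Figure D5:**
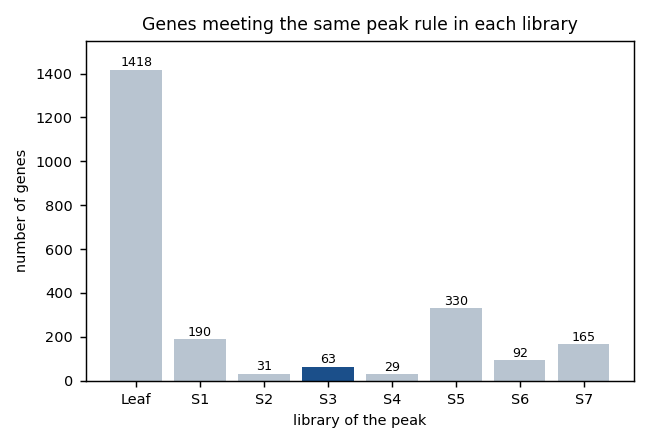
Number of genes (vertical axis) that had at least 10 FPKM in a library and at least 2 times the value of every other library, for each of the 8 libraries (horizontal axis), among 23943 genes. S3, in dark blue, had 63 genes, above S2 (31) and S4 (29), with the libraries scaled as deposited.

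How the libraries are scaled to each other moved the set. After rescaling each library to the same sum, 47 genes peaked at S3, of which 43 were among the 63. The 20 genes that dropped out had ratios between 2.05 and 2.86 as deposited, 9 with S2 and 10 with S4 as next highest library. When libraries were matched by the median ratio of their genes instead, 61 of the 63 genes remained, and by their upper quartile 60. All 43 genes that remained after same-sum scaling were also found with both of these.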

How the data were processed

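According to the series' design text, the reads passed NGS QC Toolkit, TopHat placed them on the chickpea genome, and Cufflinks gave FPKM values, which the authors deposited as 1 value per locus for the 3 replicates of a group. How replicates were merged and libraries scaled is not given in the sources used here. Of 35234 loci, 23943 with 1 identifier that occurs once were used. Left out were 2362 loci of 1168 genes with several loci, 1661 loci joining identifiers and 7268 without a gene identifier.

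Ratios were taken between FPKM values without a pseudocount. There was no replicate test, as replicates are merged. The gene set and the lists were chosen with earlier results of these data known. Genes named were those highest at S3, those with the largest ratios, members of the lists, examples of each next highest library, those nearest the thresholds, those rising at S5 and those highest in leaf. Further genes were picked with their values in view. Alternatives changed the minimum, the fold, the pseudocount, the scaling between libraries, the handling of several loci and the libraries in the rule. The number of reads per library is unknown, so no counting error is given. The code that applies the rule was tested on simulated data, made from the means of the 23943 genes with an assumed spread. Calculations used Python 3.11.15, numpy 2.4.6 and pandas 2.3.3.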

Additional observations from a re-analysis of the deposited data

Results flagged for a closer look

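Loci without a gene identifier, which enter no comparison above, also peaked at S3. By the same rule 93 of 7268 such loci did so (1.28%), and 33 of them had 100 FPKM or more at S3. In leaf, 83 of the 93 had less than 1 FPKM. S2 was the next highest library in 47 and S4 in 14, and 22 were listed at 0 in every other library. The highest of these 22 had 2702 FPKM at S3. Loci of at least 10 FPKM that were listed at 0 in every other library numbered 10 at S4, 13 at S5, 6 at S6 and 1 at S7, and 0 in leaf, at S1 and at S2. None of the 23943 genes showed such a pattern in any library. A listed 0 can be a failed estimate, and what these loci hold was not tested.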

How the results depend on the processing

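No paired analysis was possible because replicates had been merged before deposit, and for the same reason the planned fits without each replicate were not run. Under 16 alternatives 76 values were computed, and 55 stayed within 1.5 times of those reported. The number of genes peaking at S3 (63) was 41 with a minimum of 20 FPKM, 436 with no minimum, 36 with a 3-fold limit, 99 without S2 in the rule and 142 without S4. Those with S2 next highest (38) were 25, 131 and 81 with a minimum of 20 FPKM, with no minimum and without S4. Those below 1 FPKM in leaf (47) were 26 with a minimum of 20 FPKM, 412 with no minimum, 29 with a 3-fold limit, 72 without S2 and 74 without S4. Those at 4 times or more (21) were 209 with no minimum, 48 without S2 and 39 without S4. Those with S5 above S4 (14) were 8 after same-sum scaling, 22 with a minimum of 5 FPKM, 55 with no minimum, 8 with a 3-fold limit and 26 without S2. Leaving a library out gave no value where the result needs that library. These shifts came with looser or stricter rules, except that of the same-sum scaling. That scaling lowers S5 and raises S4, and it also changes which genes are in the set. Their shares in the shift were not told apart. The unknown depth limits all statements on values below 1 FPKM.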

Other observations

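Genes left out because they have several loci were checked with their loci summed. Of 1168 such genes, 10 peaked at S3 (0.856%), the highest being Ca_07686, with 1969, 3409, 8544, 1572, 464 and 0.682 FPKM from S1 to S6. Ca_16307 had the largest ratio of these, with 8.75, 5.03, 370.2 and 7.85 FPKM from S1 to S4 and a listed 0 from S5 on, 42.3 times the next library. The locus that joins Ca_16306 and Ca_16308 had a like profile, with 18.6, 13.7, 516 and 17.0 FPKM from S1 to S4 and a listed 0 at S5, a ratio of 27.7. Whether both count reads of the same transcripts was not tested. Of the 1661 loci that join identifiers, 8 peaked at S3.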
